A study of Nicotiana tabacum with 39 samples.

Results

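The first 10 min of light were followed in young leaves of Nicotiana tabacum, cultivated tobacco, that had been kept in darkness and were then returned to light. The 9 libraries used for the fit, of 39 in the series, were chosen by their titles and not by any measured value. They form 3 groups of 3 libraries: the end of darkness (0 min), 5 min of light and 10 min of light. All 9 come from soil-grown plants raised near to maturity with 16 h of light a day at 350 uE/m2/s, and all had gone through the extended dark treatment, for a time the sources used here do not give. No genotype or transgene is named in the labels. Each library is 1 pool, made from the middle part of 2 leaves of each of 3 plants, so the spread between libraries is a spread between pools of plants. Plants that stayed dark for 5 or 10 min more were not analysed here, so light cannot be told apart from anything else that happened between the harvests. The other 30 libraries, namely control leaves without dark treatment and leaves at 30 min of light and later, served as separate libraries for what happened afterwards. They carry the same replicate numbers as the 9.

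Plants sense light through phytochromes, which absorb red and far-red light, and cryptochromes, which absorb blue light. In Arabidopsis the active photoreceptors act within minutes: phytochrome-interacting factors (PIFs), which hold back greening in the dark, are degraded, and the COP1 complex stops removing HY5, a transcription factor that turns on light-responsive genes. Messenger RNAs of other transcription factors and of early light-inducible proteins are classic early responders there, while mRNAs for chlorophyll synthesis and for the light-harvesting complexes follow later. Transcripts in these files carry only NCBI GI numbers, and none of the 53725 identifiers (0 matched) could be paired with a gene in the reference table of 79372 genes. The tobacco counterparts of the genes just named, and leaf marker genes, were therefore not looked up, and no sequence is shown.

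Library totals of the 9 libraries ran from 16915304 to 25317373 counts. After low counts were removed 39229 transcripts were tested, and these held 99.9% of all counts. Measured as deviations from the mean of their own time, libraries of one replicate number correlated by 0.34 to 0.68. The grouping was not clean: replicate 1 at 5 min correlated by 0.46 with replicate 3 at 10 min and by 0.34 with replicate 1 at 10 min. Transcripts that differed between replicate numbers numbered 12565, or 32% of those tested (edgeR quasi-likelihood test, adjusted p below 0.05), a test chosen after the results were seen. The first principal component held 50.1% of the variance, and on it the replicate 2 libraries scored from 45.8 to 93.6, and the 6 libraries of replicates 1 and 3 from -52.5 to -16.3. The second component placed replicate 1 between -47.0 and -19.3 and replicate 3 above 0, up to 32.8. Neither component separated the times. Replicate 2 also differed in make-up: its 10 most abundant transcripts took 4.93% to 6.21% of counts, against 3.25% to 3.61% in the other 6 libraries, and its TMM scaling factors were 0.861 to 0.942, against 1.02 to 1.07. The part of this in the results below was not tested. What the shared replicate number stands for (a day, a tray, a set of plants) is not given in the labels. With the replicate number as a block in the model, the biological coefficient of variation common to all transcripts was 9.58%, against 19.8% without it.

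**Figure D1:**
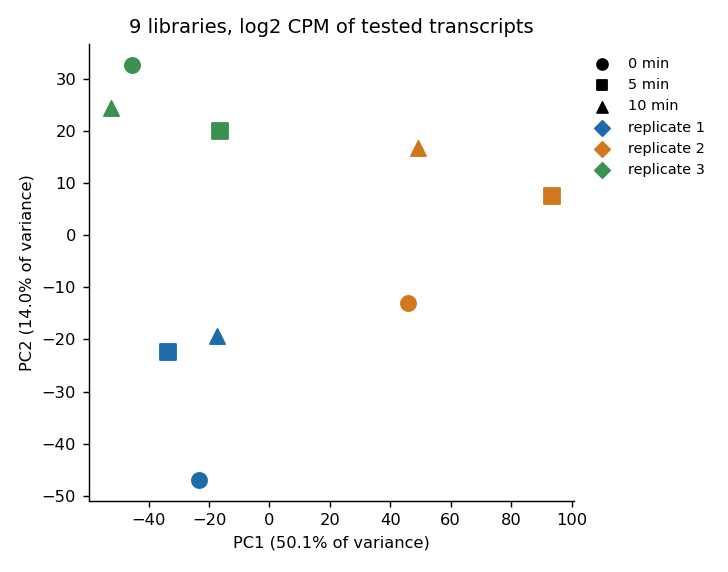
Scores of the 9 libraries on the first 2 principal components of log2 CPM (counts scaled to library size), with colour for the replicate number and shape for the time. Libraries group by replicate number: replicate 2 lies to the right, between 45.8 and 93.6, and no time forms a group.

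The first question was how soon the return to light shows in the transcript pool. At 5 min no transcript had changed (0 of 39229, 0%, by edgeR with the replicate block, and 0 by DESeq2), while 1857 had an unadjusted p under 0.05. At 10 min 1 transcript had changed by edgeR, and it was higher, whereas DESeq2 with the same block called 3, of which 1 was higher and 2 lower. The edgeR count is 0.00255% of those tested, and 1873 had an unadjusted p under 0.05. When 5 and 10 min were tested together, when their mean was set against 0 min, and when 10 min was set against 5 min, 1 transcript passed each time (0.00255% in each comparison), and it was the same one, 698585659. These comparisons reuse the same libraries, so its return in them is not separate evidence. Its place among the tested transcripts depended on its level in light, as given below. All p-values from edgeR are of its quasi-likelihood test, adjusted by Benjamini-Hochberg over the 39229 transcripts of the fit, and a transcript is said to have changed where its adjusted p was below 0.05. Without the replicate block none passed in any of the 5 comparisons (0 changed by edgeR, with 270 to 535 at an unadjusted p below 0.05).

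The block changed how the p-values were spread more than it changed the calls. With it, 4.73% of transcripts at 5 min and 4.77% at 10 min had an unadjusted p below 0.05, close to the 5% that unchanged transcripts would give. Without it the shares were 0.706% and 1.08%, far under that level. For 10 min against 5 min the share was 7.92% with the block. At 10 min the p-values under 0.05 divided into 789 higher and 1084 lower transcripts, and at 5 min into 1074 higher and 783 lower.

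**Figure D2:**
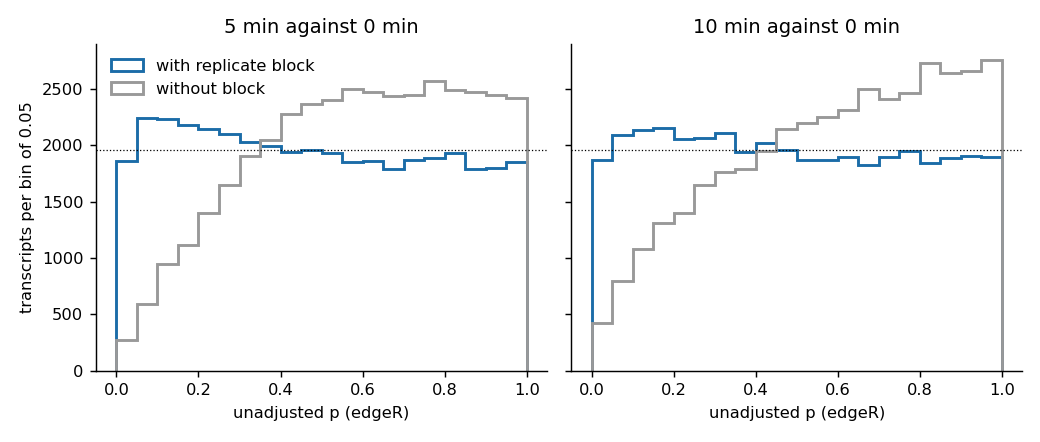
Number of transcripts in each bin of 0.05 of the unadjusted edgeR p, for 5 min (left) and 10 min (right) against 0 min. The fit with the replicate block (blue) stays near the dotted line of an even spread, whereas the fit without it (grey) has few small p-values, 0.706% and 1.08% of them below 0.05.

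For most transcripts the fitted interval left little room for a large average difference. At 10 min the 95% interval of the difference from 0 min lay wholly inside a 2-fold change in both directions for 35686 of the 39229 transcripts (91.0%), and at 5 min for 35776 (91.2%). Inside a 1.5-fold change it lay for 67.3% and 66.6%. These are intervals of single transcripts, from the SE of the fit and not adjusted for their number. Nor do they show that a 2-fold change would have reached an adjusted p below 0.05. They widen as counts fall: the share inside 2-fold at 10 min was 99.5% for transcripts with a mean of 5 to 20 CPM and 92.7% at 1 to 5 CPM, but 41.5% under 1 CPM. For rare transcripts the intervals thus often reached beyond a 2-fold change at this depth. In whole leaves, a rise within a few cells and a small rise in all cells cannot be told apart.

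Transcript 698585659 was nearly silent in darkness. It had 1, 0 and 2 counts in replicates 1 to 3 at 0 min, 7, 3 and 17 counts at 5 min, and 34, 5 and 166 counts at 10 min. In CPM (counts scaled to library size) the levels at 0 min were 0.0475, 0 and 0.0916, where a count of 0 in replicate 2 allows up to 0.175 CPM. At 5 min they were 0.246, 0.177 and 0.852 CPM, and at 10 min 1.37, 0.298 and 7.01 CPM. All 3 libraries at 5 min lay above all 3 at 0 min, and so did those at 10 min. Within each replicate number the order was 0, 5 and then 10 min. At 5 min the separation rests on 3 counts in replicate 2 against 2 counts in replicate 3 at 0 min. In replicate 2 the order rests on 0, 3 and 5 counts. Steps of so few counts cannot be told from counting noise. Replicate 2 at 10 min, the lowest of that group, was below replicate 3 at 5 min.

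The fitted log2 difference of 698585659 was 5.74 at 10 min (SE 0.48, adjusted p = 0.000473, edgeR, higher in 3 of 3 pairs) and 3.08 at 5 min (SE 0.67, adjusted p = 0.918, edgeR). From 5 to 10 min the log2 difference was 2.67 (SE 0.32, adjusted p = 0.0394, edgeR), and the mean of both light times differed from 0 min by 4.41 (SE 0.54, adjusted p = 0.0447, edgeR). These last calls were fragile. With single libraries left out, no transcript passed in the mean (0 changed) in 7 of 9 cases, all but those of replicate 2 at 5 or 10 min, and none passed in the step from 5 to 10 min (0 changed) in 5 of 9, namely replicates 1 and 2 at 0 min, replicate 3 at 5 min, and replicates 1 and 3 at 10 min. Because so few counts stand at 0 min, these fitted values depend on how zeros are handled. The pooled counts, 205 at 10 min against 3 at 0 min, give a ratio of 62.8 with a 95% interval of 21.2 to 307 that covers counting error only. The transcript passed the low-count filter through 3 libraries, the least number needed, none of them at 0 min. Its place among the tested transcripts thus depended on its level in light, and its p-values do not allow for that. With no such filter its adjusted p was 2.39e-07, in a range over all alternatives tried from that value to 1, the last without the replicate block. Replicate 3 carried much of the call: without replicate 3 at 10 min the log2 difference was 4.99 (adjusted p = 0.241, edgeR), and without replicate 3 at 0 min 4.92 (adjusted p = 0.757, edgeR).

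Libraries outside the 9 showed the same transcript high at 30 min and low again soon after. Replicates 1 to 3 held 1.89, 2.91 and 3.72 CPM at 30 min, so replicate 2, the lowest at 10 min, lay between the others. The level was 0.243 ± 0.184 CPM at 1 h and 0.0444 ± 0.0547 CPM at 2 h (SD, n = 3), and from 4 h to 64 h no library exceeded 0.0515 CPM. At the last harvest 8 counts (0.423 CPM) stood in replicate 2 and none in the others. Control leaves held 0.138, 0.0492 and 0.515 CPM. Fitted on the other 30 libraries, 30 min was above 2 h by 6.02 on the log2 scale (SE 0.81, adjusted p = 3.67e-06, edgeR) and above control by 3.48 (SE 0.60, adjusted p = 4.15e-05, edgeR).

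The transcript listed directly after 698585659 in the files followed a similar course over the 9 libraries, with 1.38, 2.10 and 1.37 CPM at 0 min, 2.04, 2.18 and 4.01 CPM at 5 min, and 5.23, 1.96 and 16.3 CPM at 10 min. Its difference at 10 min did not pass (log2 2.10, SE 0.42, adjusted p = 0.621, edgeR). Replicate 2 did not stand above 0 min in it. Neighbouring identifiers can be near-identical copies that share reads, and the sources used here do not say how such reads were counted.

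No transcript met the naming rule, which asked for an adjusted p below 0.05, at least 5 CPM and 1 direction in all pairs. By the planned rule none would then have been named. The transcripts named here were chosen outside that plan, after their values were seen. They are those with the 2 lowest p-values in each direction at 10 min.

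The second on the higher side, 698441986, stood at 2.04, 2.39 and 1.28 CPM at 0 min, at 3.16, 1.12 and 8.62 CPM at 5 min, and at 24.7, 2.38 and 143.5 CPM at 10 min. Replicates 1 and 3 were far above darkness at 10 min and replicate 2 was level with it, so the groups overlapped. As differences within pairs of the same replicate number, 10 min minus 0 min was 3.56, -0.0023 and 6.76 on the log2 scale. In the fit with the block the log2 difference was 4.29 (SE 0.70, adjusted p = 0.342, edgeR). At 30 min all 3 libraries were high, at 29.7, 32.5 and 48.2 CPM, and 30 min was above 2 h by log2 3.51 (SE 0.46, adjusted p = 1.50e-06, edgeR, 30 other libraries). Left out of the fit, replicate 2 at 10 min gave log2 4.89 (adjusted p = 0.00134, edgeR) and replicate 2 at 0 min 5.25 (adjusted p = 0.00870, edgeR). Without replicate 3 at 10 min the log2 difference was only 2.94 (adjusted p = 0.878, edgeR). Without replicate 3 at 0 min it was 2.60 (adjusted p = 0.757, edgeR). Over all alternatives the adjusted p ran from 0.000225 to 1.

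On the lower side the differences were smaller, and every pair was lower at 10 min, as the choice by low p favours at such sizes. Transcript 698551380 stood at 41.9, 63.1 and 37.4 CPM at 0 min, 29.3, 61.7 and 38.6 CPM at 5 min, and 24.2, 39.8 and 19.0 CPM at 10 min. The 10 min level was below the 0 min level within each pair, by -0.81, -0.66 and -0.97 on the log2 scale. The groups overlapped only because replicate 2 was high at both times. Without the block the SE was 0.33 and with it 0.12, on log2 differences of -0.78 and -0.81, and the adjusted p with the block was 0.226 (edgeR). It passed by DESeq2 with the block (adjusted p = 0.000103). By edgeR it passed with no filter on low counts (adjusted p = 0.00196), in the fit of the 6 libraries at 0 and 10 min (0.0187), without replicate 1 at 5 min (0.00469) and without replicate 3 at 5 min (0.0485). Over all alternatives the adjusted p ran from 0.000103 to 1, the last without the block. At 30 min it stood at 30.7, 37.8 and 26.7 CPM, above 2 h by 1.88 on the log2 scale (SE 0.23, adjusted p = 5.83e-07, edgeR) and above control by 1.03 (SE 0.22, adjusted p = 0.000361, edgeR). At 1 h it was at 6.14 ± 0.95 CPM and at 2 h 8.60 ± 1.10 CPM (SD, n = 3), below the 15.7 ± 4.84 CPM of control leaves.

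Transcript 698515934 stood at 40.3, 84.0 and 44.4 CPM at 0 min, 37.0, 67.7 and 38.4 CPM at 5 min, and 32.0, 50.3 and 31.7 CPM at 10 min. Every pair was lower at both light times than at 0 min, by -0.14, -0.29 and -0.21 on the log2 scale at 5 min and by -0.35, -0.73 and -0.48 at 10 min. The fitted log2 difference at 10 min was -0.52 (SE 0.09, adjusted p = 0.424, edgeR). It passed by DESeq2 with the block (adjusted p = 0.0342) and by edgeR with no filter on low counts (adjusted p = 0.0277), in a range over all alternatives from 0.0277 to 1. This transcript and 698551380 are the 2 that DESeq2 called lower. The low level did not last: it was 63.9 ± 13.9 CPM at 30 min, against 56.2 ± 24.1 CPM at 0 min (SD, n = 3). It was 446.6 ± 217.5 CPM at 1 h and 392.9 ± 117.4 CPM at 2 h, against 278.3 ± 71.1 CPM in control leaves (SD, n = 3). From 4 h to 64 h the means were lower again, between 60.6 CPM (8 h) and 102.5 CPM (64 h). Among the 30 other libraries it was lower at 30 min than at 2 h by -2.62 on the log2 scale (SE 0.39, adjusted p = 9.64e-06, edgeR). That comparison is with the high level at 2 h and does not show a fall from 0 min.

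**Figure D3:**
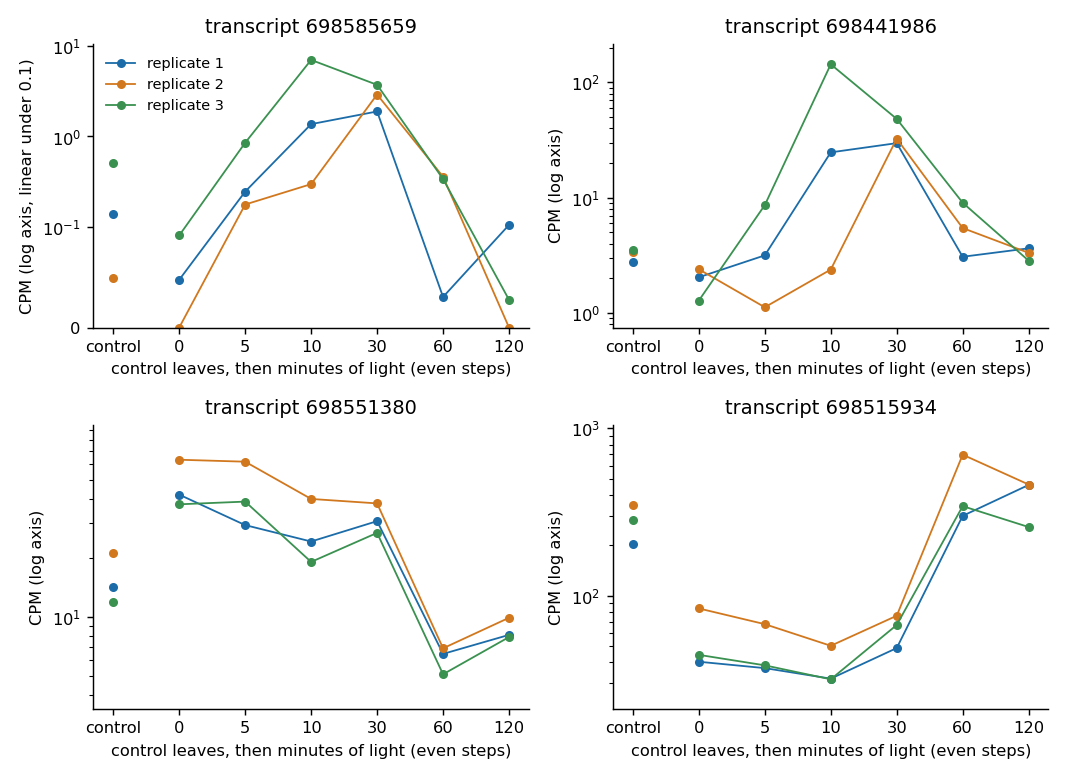
CPM of the 4 named transcripts in control leaves and from 0 to 120 min of light, 1 line for each replicate number, on log axes (linear under 0.1 CPM in the first panel). In the upper panels replicate 3 is highest at 10 min and replicate 2 reaches the other replicates at 30 min; in the lower panels each line is lower at 10 min than at 0 min, and the lines cross at other times.

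The pairs were then compared with each other, as no library belongs to more than 1 of them. In the 22101 transcripts whose mean reached 5 CPM, the log2 difference between 10 min and 0 min had an SD across transcripts of 0.23, 0.23 and 0.21 in pairs 1, 2 and 3, where a pair is the light and dark library of 1 replicate number. Pair 3 held 50 transcripts that were at least 2-fold higher at 10 min and 6 that were at least 2-fold lower. Pair 1 held 19 and 7. Pair 2 went the other way, with 4 higher and 39 lower. No transcript was at least 2-fold higher in all 3 pairs (0), and 7 were in pairs 1 and 3. Across the 22101 transcripts, which share depth and noise within a library, the differences correlated weakly, by 0.21 for pairs 1 and 2, 0.17 for pairs 1 and 3, and -0.08 for pairs 2 and 3.

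The 50 transcripts chosen in pair 3 were higher at 10 min in pair 1 for 38 of 50 and by a median of 0.33 (log2), while 46.9% of all transcripts were higher there and the median of all was -0.02. In pair 1, 7 of the 50 were at least 2-fold higher, against 19 of all 22101. In pair 2 only 22 of the 50 were higher, with 51.5% of all, the median was -0.02, and 0 were at least 2-fold higher. The 19 transcripts chosen in pair 1 had 15 higher in pair 3 (median 0.25) and 9 higher in pair 2 (median -0.0023). In replicate 2 at 10 min the transcripts that stood out in the other replicate numbers thus had a median near 0. Whether light exposure, harvest time or tissue differed between the replicate numbers was not tested.

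**Figure D4:**
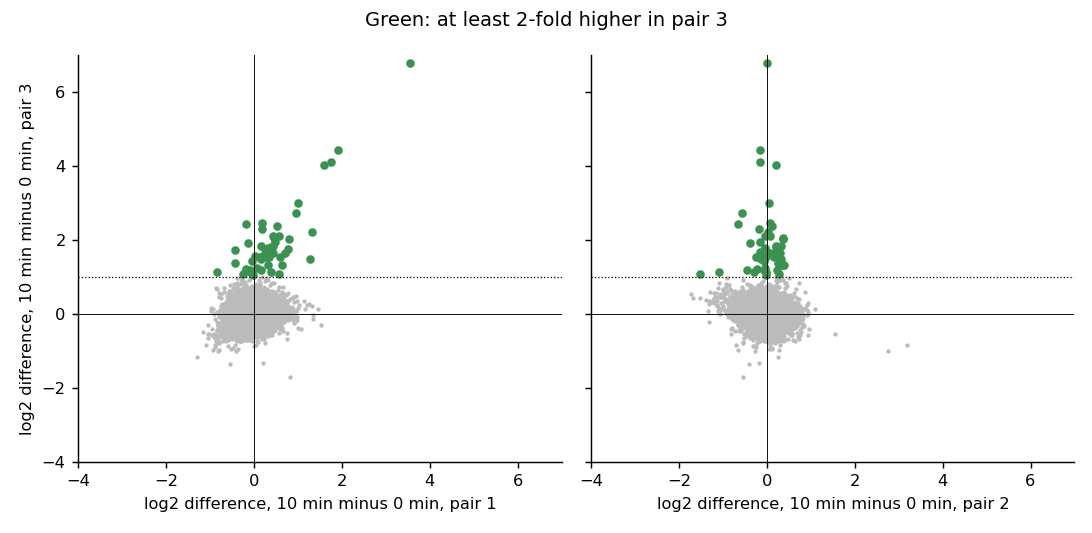
Log2 difference between 10 and 0 min in pair 3 (vertical) against pair 1 (left) and pair 2 (right) for 22101 transcripts of at least 5 CPM. The 50 transcripts chosen for at least 2-fold in pair 3 (green, above the dotted line) lean to the right in pair 1, with a median of 0.33, and centre on -0.02 in pair 2.

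By 30 min these 50 transcripts were high in all replicate numbers. Relative to the mean of control leaves, their median log2 CPM was 1.34, 1.61 and 1.84 in replicates 1, 2 and 3 at 30 min. With scaling by library size only the values were 1.61, 1.80 and 2.13. For comparison the medians were 0.13, 0.14 and -0.30 at 0 min, 0.03, 0.13 and 0.35 at 5 min, and 0.27, 0.05 and 1.48 at 10 min, where the values of replicate 3 at 0 and 10 min are those that chose the list. At 1 h they had come down to 0.27, 0.45 and 0.67, and at 2 h to 0.16, -0.09 and -0.12. At 8 h all 3 were below control, at -0.50, -0.54 and -0.87 (-0.34, -0.31 and -0.78 with library size only).

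The fit of the 30 other libraries gives the same as counts. Among the 50, 39 were higher at 30 min than at 2 h (78.0%) and 1 was lower, where 20.7% of the 41853 transcripts tested were higher and 19.5% lower. Against control 43 of the 50 were higher at 30 min (86.0%) and 0 lower, where 27.9% of all were higher and 26.4% lower. The median log2 difference of the 50 was 1.46 from 2 h and 1.6 from control, and the medians of all transcripts were 0.0046 and 0.025. The values for all cover transcripts at any CPM, whereas the 50 were limited to a mean of at least 5 CPM, so the backgrounds are unlike. No library of the 9 enters this fit, but its libraries carry the same replicate numbers. Without its replicate 3 libraries, 70% of the 50 were higher at 30 min than at 2 h and 80% higher than control.

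**Figure D5:**
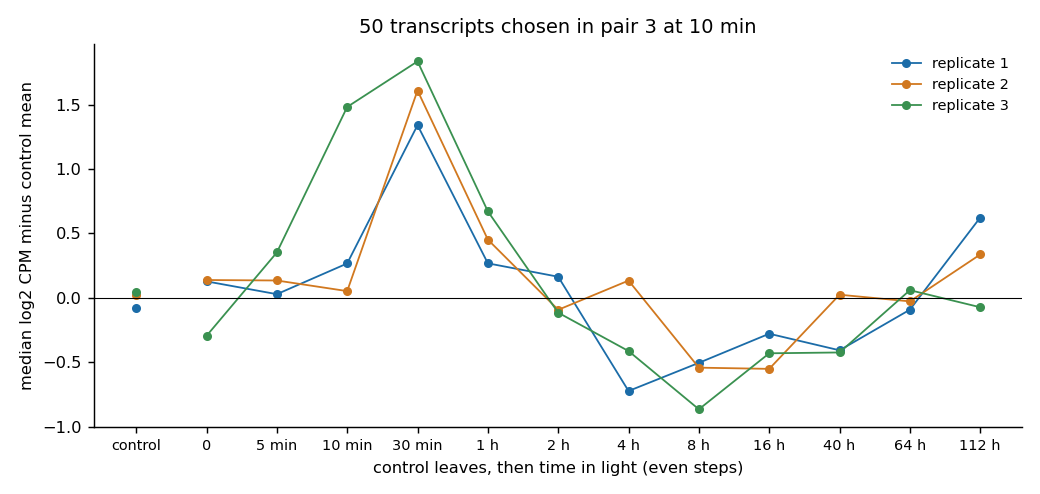
Median log2 CPM, relative to the mean of control leaves, of the 50 transcripts chosen in pair 3 at 10 min, in every library of the series (1 line for each replicate number, even steps of time). The 1.48 of replicate 3 at 10 min comes from a library used to choose the list, so a high value there follows from the choice. At 30 min, which had no part in the choice, all 3 replicates stand between 1.34 and 1.84.

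Calls were also made with 2 replicate numbers. Without replicate 2, 14 transcripts had changed at 10 min, 13 of them higher, and 12 of the 14 were among the 39229 tested in all 9 libraries. For the 11 higher ones among these 12 the log2 differences ran from 1.41 to 5.79 (median 2.97). In the left-out pair their median was -0.0023, from -0.17 to 2.87, and 5 of 11 were above 0. The median of all transcripts there was 0.0073. In the 30 other libraries 9 of the 11 were higher at 30 min than at 2 h and 10 of 11 were higher than in control. Without replicate 1 only 698585659 passed (1 changed), and in the left-out pair it was higher by 3.90 (log2). Without replicate 3 none passed (0 changed by edgeR, though 2294 had an unadjusted p under 0.05), but 698585659 did not pass the low-count filter there and was not tested.

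At 5 min the pairs went apart in another way. Pair 1 held 8 transcripts at least 2-fold higher and 0 lower, pair 2 held 19 and 86, and pair 3 held 16 and 45. The correlation of the differences was 0.33 between pairs 2 and 3, -0.33 between pairs 1 and 3, and -0.09 between pairs 1 and 2 (22101 transcripts). Of the 45 transcripts lower in pair 3, 39 were lower in pair 2 (45.1% of all were), with a median of -0.49, but 3 were lower in pair 1 (53.7% of all were), where the median was 0.41. Of the 86 lower in pair 2, 48 were lower in pair 3 (46.6% of all were) and 44 in pair 1 (53.7% of all), with medians of -0.06 and -0.02. Without replicate 1 at 5 min, 67 transcripts had changed at 5 min (25 higher, 42 lower, edgeR), 147 at 5 or 10 min together, and 320 between 5 and 10 min (265 higher at 10 min, 55 lower).

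The 39 transcripts at least 2-fold lower at 10 min in pair 2 leaned the same way in pair 1, where 37 of 39 were lower (53.1% of all were) with a median of -0.31, and the opposite way in pair 3, where 1 of 39 was lower (49.2% of all were) and the median was 0.37. At 30 min 27 of the 39 were below control, where 26.4% of all transcripts tested were, at any CPM. But 4 were below 2 h, where 19.5% of all were. Among transcripts of at least 5 CPM, large differences at 10 min thus did not recur over the 3 pairs in either direction.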

How the data were processed

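The deposited files hold raw counts for each transcript, whole numbers that the authors had not normalized as far as the values show. FastQC 0.10.1, BWA 0.70 and SAMtools 1.0 are named without roles in the submitters' processing notes, and reads were single-end, 100 bp, from polyA RNA, per the labels' protocols. Part of that same protocol text describes plants and harvests of another design, so the sequencing details may not be specific to these libraries. The reference sequences, the counting tool, the strand setting and the treatment of multiply matching reads are unknown, as the sources used here do not give them.

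In R 4.3.3, edgeR 4.0.16 was run on 9 libraries: filterByExpr (minimum count 10, minimum total 15), TMM scaling, and glmQLFit with time and replicate number. For 30 min against 2 h or control, the other 30 libraries were fitted in the same way. The SE is the absolute log2 difference divided by the square root of F. CPM were scaled over all 39 libraries; pair differences used log2 CPM with a prior count of 1, scaled over the 9. DESeq2 1.42.0 was an alternative. Counts simulated from the same model, with the common spread for every transcript, were used to check the code. They say nothing on how well the model fits these libraries.

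Replicate numbers come from the titles. The comparison was planned with the replicate number as a block. Same-numbered libraries correlated in their deviations from group means by 0.34 to 0.68 in all 9 pairs of libraries. Such deviations cancel out within a group, so likeness of same-numbered libraries by itself lowers the values of unlike numbers. Pairs of unlike number ran from -0.62 to 0.46, the highest being replicate 1 at 5 min with replicate 3 at 10 min, above the 0.34 of that library with replicate 1 at 10 min. Nothing says what the pools share. With the block, p-values use only the spread between pools that is left once differences between replicate numbers are taken out. Replicates within a group differed by far more than sampling noise (chi-square per degree of freedom 7.09 to 47.0).

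The members, lists and tests were chosen with earlier results of these data known. Planned gene lists could not be tested, since no identifier was paired with a name. The naming rule took up to 2 transcripts each way with adjusted p below 0.05, at least 5 CPM and 1 sign in 3 pairs.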

Additional observations from a re-analysis of the deposited data

Results flagged for a closer look

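The contrast with 0 min differed between the light times for transcript 698585659. Tested directly, 10 min exceeded 5 min by 2.67 on the log2 scale, with SE 0.32 and an adjusted p of 0.0394 by edgeR, and it was the higher time in 3 of 3 pairs. No transcript passed this comparison (0 changed by edgeR) without the replicate block or without any 1 of 5 single libraries, namely replicate 1 or 2 at 0 min, replicate 3 at 5 min, and replicate 1 or 3 at 10 min. Without replicate 1 at 5 min 320 passed, without replicate number 1 61, and without replicate 2 at 10 min 5. With all libraries of replicate 3 left out this transcript did not pass the low-count filter and was not tested.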

How the results depend on the processing

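Without the replicate block the counts of changed transcripts were 0 at 10 min, 0 for both times together, 0 for their mean and 0 for the step from 5 to 10 min, in place of 1 each. With no filter on low counts they were 27 (23 higher, 4 lower), 27, 2 and 7. With the filter of all 39 libraries 2 changed at 10 min and 3 at both times together, and with all 39 libraries fitted the counts were 3, 3, 0 and 0. DESeq2 called 3 at 10 min (1 higher, 2 lower), 2 together and 0 for the step. Fits of only the 6 libraries of both groups gave 1 at 5 min and 1 at 10 min, both lower; 698585659 was not tested there. Leaving out 1 library or 1 replicate number gave 0 to 67 at 5 min, 0 to 19 at 10 min (19 without replicate 2 at 10 min), 0 to 147 together, 0 to 3 for the mean and 0 to 320 for the step; the cause was not tested. Leaving out 1 replicate number gave 11212 to 12794 in place of 16845 for 30 min against 2 h. A minimum of 10 CPM in place of 5 left 7, 0 and 26 transcripts at least 2-fold higher in pairs 1, 2 and 3, and of the 26, 88.5% and 84.6% were above 2 h and control at 30 min. DESeq2 size factors, library size only and robust spread kept the 5 counts at 0 and 1. Among the 4 named transcripts direction turned only at 5 min: 698441986 went to -0.70 without replicate 3 at 0 min and -0.17 without replicate 3 (range over left-out libraries -0.70 to 1.89), and 698551380 to 0.014 without replicate 1 at 5 min and 0.0039 without replicate 1 (range -0.30 to 0.014). Intervals, CPM limits and floors cover counting and fitted spread only.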

Other observations

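At an unadjusted p below 0.001 there were 40 transcripts at 10 min, where 39.2 of 39229 would be there with no change at all. They were 24 higher and 16 lower. In the 24 higher ones the median log2 difference was 0.88, 0.33 and 2.27 in pairs 1, 2 and 3. In the 16 lower ones the medians were -0.58, -0.53 and -0.59. A low p at such small differences requires pairs that are alike, so the likeness of the lower medians follows from the choice. In the 30 libraries that had no part in choosing them, 20 of the 24 were higher at 30 min than at 2 h (20.7% of all transcripts were) and 22 of 24 higher than control (27.9% of all). Of the 16, 8 were lower at 30 min than at 2 h (19.5% of all) and 11 lower than control (26.4% of all).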
